A study of Homo sapiens with 6 samples.

Results

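The ATP-binding cassette (ABC) family was described in MOLT-3 cells, an established human line of T-cell acute lymphoblastic leukaemia, as the protein-coding genes of the deposited count table whose symbol is ABC, a subfamily letter from A to G and a number. That rule took 45 of 58735 genes: 12 of subfamily A, 9 of B, 11 of C, 4 of D, 1 of E, 3 of F and 5 of G. It leaves out family members that carry other symbols, such as TAP1, TAP2 and CFTR, which are given separately. Polyadenylated RNA was sequenced from 3 libraries of cells given the solvent DMSO and 3 libraries of cells given compound E, an inhibitor of gamma-secretase, the protease that frees the active intracellular part of NOTCH receptors. All 6 libraries came from this single cell line, and no genotype other than that of the line was used. No source used here gives the dose or duration of compound E. Nothing in the labels tells whether replicates came from separate cultures; the p-values therefore reflect only the library-to-library spread, which may be technical.

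ABC proteins bind and split ATP through paired nucleotide-binding domains, and most use that energy to move lipids, peptides, metabolites or drugs across a membrane. P-glycoprotein (ABCB1), the multidrug resistance proteins of subfamily C and the breast cancer resistance protein (ABCG2) expel chemotherapy drugs and are studied in leukaemia for that reason. Subfamilies E and F have no membrane span and act on ribosomes instead. The study searched for NOTCH1-regulated genes that could bear on the chemosensitivity of T-cell leukaemia, and the efflux pumps are among the genes such a search covers.

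Total counts ran from 17316138 to 19845114 per library, so that 3 counts, the limit that a count of 0 allows, correspond to 0.151 to 0.173 CPM (counts scaled to library size). The ABC genes took 0.161% to 0.165% of the counts in each library. All 4 NOTCH targets used as a check fell, HES4 29.8-fold and DTX1 24.3-fold. All 8 T-lineage markers were tested and 7 changed (87.5%, against 38.3% of all tested genes), 5 lower and 2 higher: CD3E fell 1.13-fold (585 ± 20.4 CPM with DMSO, 516 ± 14.1 CPM with compound E; SD, n = 3), CD7 fell 1.66-fold (113 ± 2.1 to 68.3 ± 3.73 CPM) and CD2 rose 1.92-fold (42.7 ± 1.39 to 82.0 ± 4.28 CPM). Meanwhile MS4A1, HBB and KRT19, of B cells, erythroid cells and epithelium, had 0 counts in every library. CD79A had 224 to 273 counts, and the other B-cell, myeloid, erythroid and epithelial markers had at most 24. Compound E replicate 3 stood somewhat apart from the other compound E libraries. The chi-square per degree of freedom was 2.66 and 2.75 against them, and 1.65 to 1.89 for the other pairs of replicates.

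Most of the family was either moderately expressed or close to silent. Levels between genes are compared here in the deposited FPKM, which is scaled by gene length. Over all 6 libraries 15 members averaged 5 FPKM or more, 8 lay from 0.5 to under 5 FPKM and 22 were under 0.5 FPKM. The highest level was that of ABCF1, at 44.8 FPKM, followed by ABCC1 (28.1 FPKM), ABCE1 (22.2 FPKM), ABCG1 (21.5 FPKM), ABCC5 (19.2 FPKM) and ABCB10 (17.4 FPKM). ABCF1 and ABCE1 are the factors of translation, so the most abundant transporters proper were the drug and conjugate pumps ABCC1 and ABCC5, the sterol exporter ABCG1 and the mitochondrial ABCB10. ABCB1, ABCB5 and ABCC9 had 0 counts in all 6 libraries.

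**Figure D1:**
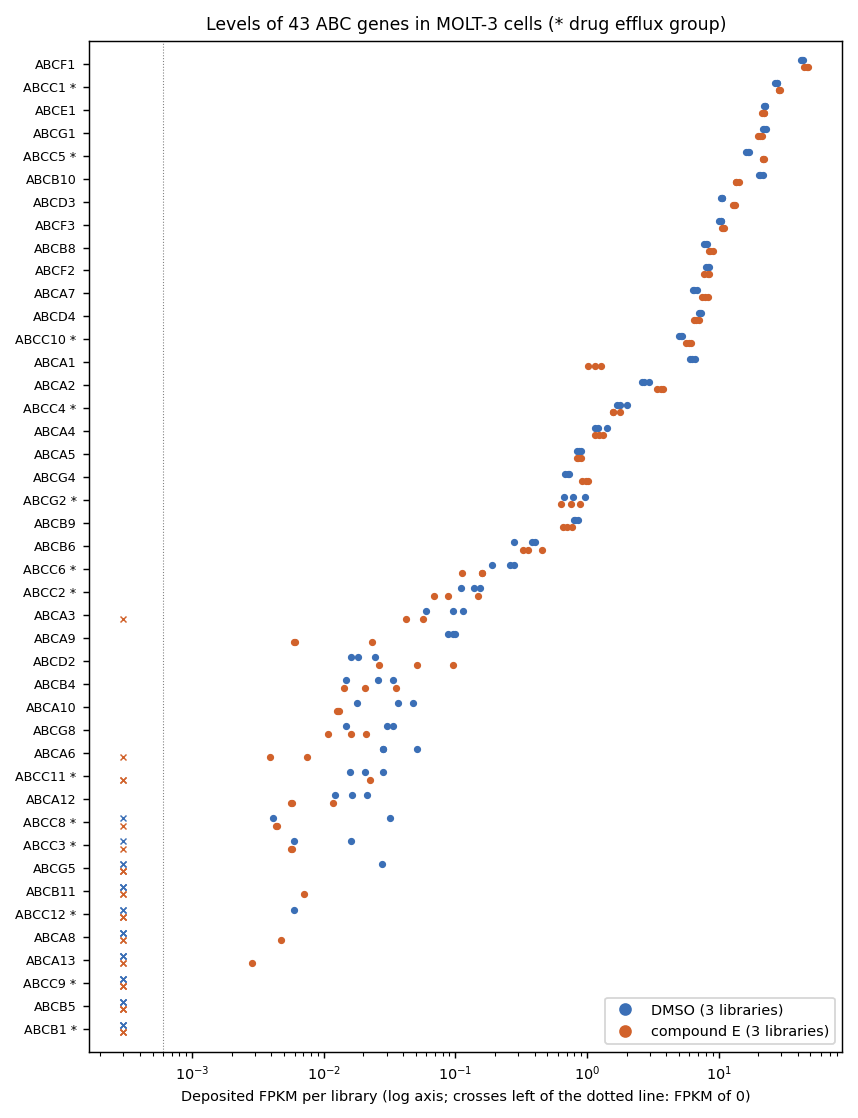
Deposited FPKM of 43 of the 45 ABC genes on a log axis, with 1 point per library (blue DMSO, orange compound E) and genes ordered by their mean. Crosses left of the dotted line mark libraries at 0, and asterisks mark the drug efflux group; ABCF1 is highest, at 44.8 FPKM on average, and ABCA1 drops from 6.35 to 1.15 FPKM on average.

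Of the 45 members, 27 had enough counts to be tested and 18 did not. Compound E changed 16 of the 27, with 10 higher and 6 lower, in the edgeR quasi-likelihood test at a Benjamini-Hochberg adjusted p under 0.05 over 16926 genes. Over all tested genes the same rule called 38.3%, with 18.9% higher and 19.4% lower, and over tested protein-coding genes it called 44.7%. Among genes of at least 5 CPM in 3 libraries it called 49.8%, and 12 of 22 tested members (54.5%). The median log2 fold change, compound E over DMSO, was -0.02 for the tested members and -0.003 for all tested genes, and the median size of the log2 change was 0.15 and 0.17. The libraries of the groups did not overlap in 19 of the 27 members, and in 46.8% of all tested genes. At least 2-fold changes were called in 2 members, ABCA1 and ABCA9, both lower, against 2.63% of all tested genes lower and 1.2% higher by that rule. Of these, ABCA9 entered the test through its DMSO libraries alone, so it could hardly have been called higher. Without compound E replicate 3, 6 members were called higher and 6 lower, beside 34.9% of all genes. Where calls under other settings are quoted, the share of all genes called was 38.3% with RLE scaling, 38% with library size alone, 37.9% with upper quartile scaling, 18.6% with no filter, 37.8% with limma-voom, 36.3% with the replicate block and 29.2% with DESeq2. With limma it was 31.2% on log2(FPKM + 1), 31.1% on log2(FPKM + 0.1) and 11.9% on log2(FPKM + 1) without a filter, and 46.1% in edgeR on protein-coding genes alone. It was 33%, 32.8% and 33% without DMSO replicates 1, 2 and 3, and 33% and 34.1% without compound E replicates 1 and 2. In bulk libraries such as these, a change in every cell and a change in the share of cells that express a gene cannot be told apart.

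**Figure D2:**
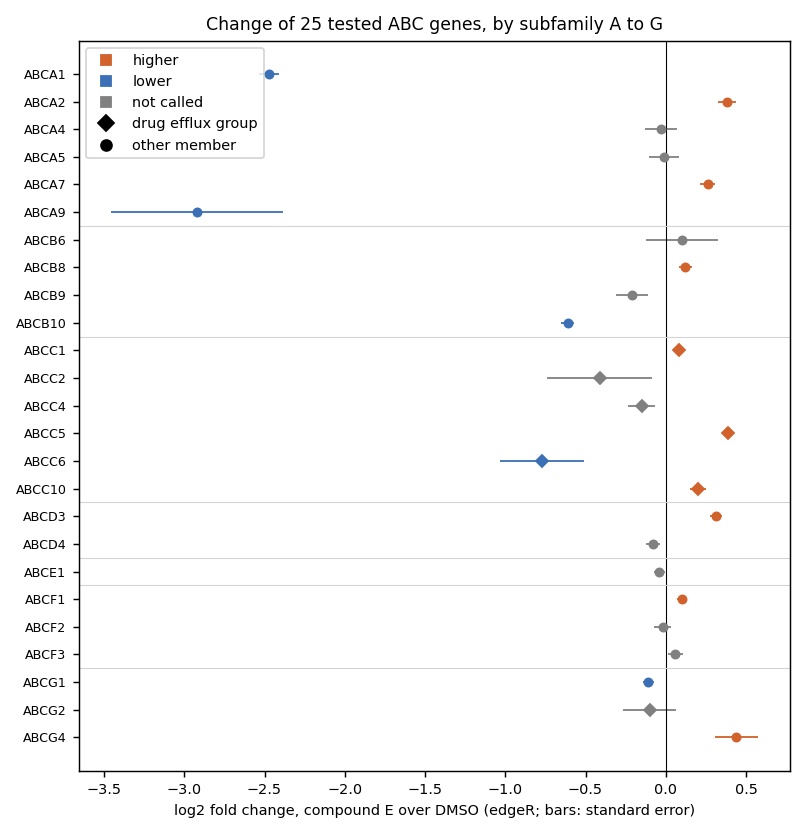
Log2 fold change of 25 of the 27 tested ABC genes in edgeR, with bars for the standard error, grouped by subfamily from A at the top to G. Diamonds are drug efflux members; ABCA9 (-2.92) and ABCA1 (-2.47) lie far to the left, and all other members shown are between -0.77 and 0.44.

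The drug efflux members, which are ABCB1, the 11 genes of subfamily C and ABCG2, moved in both directions. Of these 13 genes 7 were tested, 3 rose (ABCC1, ABCC5 and ABCC10) and 1 fell (ABCC6). Among the other 32 members 20 were tested, of which 7 rose and 5 fell. The share called was 57.1% in the efflux group and 60% in the others. Of all tested genes 38.3% were called, and of tested protein-coding genes 44.7%. The median log2 fold change was -0.10 in the efflux group and -0.02 in the others. Whether the groups differ was not tested, since the members are not replicates of a condition.

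ABCB1, the classical pump of vinca alkaloids, anthracyclines and glucocorticoids, was not detected. It had 0 of 56470645 counts over the DMSO libraries and 0 of 55341874 over the compound E libraries, which allows at most 0.0531 and 0.0542 CPM, counting error only. ABCG2, the breast cancer resistance protein, was present at a low level, at 3.42, 4.89 and 3.99 CPM with DMSO and 3.23, 3.82 and 4.46 CPM with compound E. The groups overlapped, and the log2 fold change of -0.10 ± 0.166 (SE; edgeR adjusted p = 0.69) left no difference detectable at this depth.

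ABCC5, which exports cyclic nucleotides, nucleotide analogues and folates, showed the largest rise of the tested efflux members. It measured 193, 187 and 196 CPM with DMSO and 249, 252 and 251 CPM with compound E, with every treated library above every control. The rise was 1.31-fold, a log2 fold change of 0.39 ± 0.0292 (SE; edgeR adjusted p = 4e-14). ABCC10, a pump of taxanes and vinca alkaloids, rose 1.15-fold, from 41.0, 42.5 and 42.9 CPM to 46.2, 48.7 and 50 CPM, again without overlap (edgeR adjusted p = 0.0014). ABCC1, which carries glutathione conjugates, anthracyclines and methotrexate, read 211, 205 and 211 CPM with DMSO and 219, 218 and 223 CPM with compound E. The libraries did not overlap, yet the difference was only 1.05-fold, with a log2 fold change of 0.08 ± 0.0291 (SE; edgeR adjusted p = 0.0362). That call was lost with DESeq2 (adjusted p = 0.0619), with upper quartile scaling (0.0986), with the stricter filter (0.0631), with the replicate block (0.0551), with limma on unfiltered FPKM (0.0576), and, when 1 library was left out of edgeR, for DMSO replicates 2 (0.171) and 3 (0.0586) and for replicates 1 (0.0657) and 3 (0.0717) of compound E.

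ABCC6, an ATP release pump of liver best known from pseudoxanthoma elasticum, went the other way at a low level. Its counts were 38, 42 and 25 with DMSO and 22, 22 and 16 with compound E, which do not overlap, and its log2 fold change was -0.77 ± 0.26 (SE; edgeR adjusted p = 0.0176). DESeq2 did not call it (adjusted p = 0.0824), and neither did the FPKM fits by limma (0.0595 to 0.189). In edgeR the adjusted p was 0.0584, 0.0993 and 0.0911 when DMSO replicate 1, DMSO replicate 2 or replicate 3 of compound E was left out. The pseudogenes ABCC6P1 and ABCC6P2 had 0 counts in every library, and no source used here tells how reads matching both were handled, so the level of ABCC6 is uncertain. ABCC4, a pump of cyclic nucleotides and thiopurines, gave 17.4, 15.5 and 14.7 CPM with DMSO and 15.4, 13.8 and 13.8 CPM with compound E, which overlap (log2 fold change -0.15, edgeR adjusted p = 0.17). ABCC2, the canalicular pump of liver, was also not called (-0.41 ± 0.327 (SE), adjusted p = 0.35 in edgeR). ABCC3, ABCC8, ABCC11 and ABCC12 had at most 7 counts in any library; ABCC8 and ABCC9 are the sulfonylurea receptors of potassium channels and pump no drugs.

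Summed over the 13 efflux genes, the deposited FPKM was 52.6, 51.3 and 52.6 with DMSO and 58.8, 59.3 and 60.0 with compound E. The means were 52.1 ± 0.761 and 59.4 ± 0.581 (SD, n = 3), a difference of 7.24 FPKM, which is larger than the spread between replicates; a sum over chosen members is given here without a test. ABCC1 and ABCC5 made up 84.3% of the sum with DMSO and 85.5% with compound E. The other members apart from subfamilies E and F summed to 108 ± 1.1 FPKM with DMSO and 97.0 ± 0.791 FPKM with compound E, lower by more than the spread between replicates. In that sum ABCB10 went from 21 to 13.8 FPKM on average and ABCA1 from 6.35 to 1.15 FPKM, whereas ABCD3 rose from 10.6 to 13.2 FPKM. The fall was thus not general: with subfamilies E and F included, 7 of the other members were called higher and 5 lower. Over all 45 members the sum was 244 ± 1.7 FPKM with DMSO and 244 ± 1.8 FPKM with compound E, a difference smaller than the spread between replicates.

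**Figure D3:**
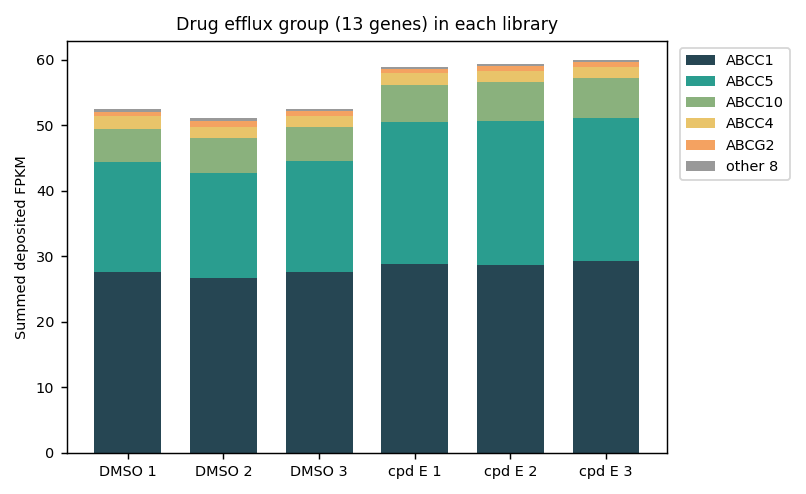
Summed deposited FPKM of the 13 drug efflux genes in each of the 6 libraries, stacked by gene, with the axis starting at 0 (cpd E is compound E). Totals run from 51.3 to 52.6 with DMSO and from 58.8 to 60.0 with compound E, and the ABCC5 layer shows most of the step.

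Genes around the pumps were counted from lists of textbook members. Of 13 tested genes (16 listed) of glutathione synthesis and conjugation, which feed the conjugate pumps, 6 fell and 0 rose. Those that fell included GCLC, of the rate-limiting step of glutathione synthesis (-0.17), the reductase gene GSR (-0.12) and the transferase gene GSTP1 (-0.08). In this list 46.2% were called, beside 38.3% of all tested genes and 44.7% of tested protein-coding genes. The list median was -0.08. Among 9 tested regulators of efflux genes 5 fell and 1 rose (66.7% called, median -0.10). NFE2L2, which drives antioxidant and conjugation genes, fell with a log2 fold change of -0.42 ± 0.0518 (SE), FOXO3 fell (-0.34), and KEAP1, the adaptor that marks NFE2L2 for destruction, rose (0.28). Of 8 tested drug carriers outside the family 4 fell and 1 rose (62.5% called, median -0.11): SLC29A1, the nucleoside carrier that takes up cytarabine, rose 1.25-fold (75.6 ± 2.5 CPM with DMSO, 94.4 ± 2.4 CPM with compound E; SD, n = 3), and SLC19A1, the reduced folate carrier that takes up methotrexate, fell (-0.19).

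The lipid transporters held the largest change of the family. Of 17 members 8 were tested, with 3 higher (ABCA2, ABCA7 and ABCG4) and 3 lower (ABCA1, ABCA9 and ABCG1). That is 75% called, beside 38.3% of all tested genes and 44.7% of tested protein-coding genes. ABCA1, which loads cholesterol and phospholipid onto apolipoprotein A-I, lies on GRCh38 at chromosome 9, 104781002 to 104928237, minus strand (ENSG00000165029). It read 76.3, 69.5 and 72.5 CPM with DMSO and 14.6, 11.6 and 13.2 CPM with compound E. The groups were far apart: the fall was 5.54-fold, a log2 fold change of -2.47 ± 0.063 (SE; edgeR adjusted p = 3.79e-29), and it stayed between -2.55 and -2.38 when any library was left out. Its nearest tested neighbours also fell, where 19.4% of all tested genes were called lower. NIPSNAP3B, 3.5 kb away, had -0.75 (edgeR adjusted p = 0.00901). The choline transporter gene SLC44A1, 316.4 kb away on the other side, had -0.77 (edgeR adjusted p = 8.35e-18).

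ABCG1, which exports cholesterol to larger lipoproteins, barely moved. Its values were 134, 136 and 142 CPM with DMSO and 127, 132 and 123 CPM with compound E. The groups did not overlap, and the fall was 1.08-fold (log2 fold change -0.11 ± 0.0343 (SE), edgeR adjusted p = 0.00862); the call was lost with limma on FPKM (0.0576 to 0.123) and without DMSO replicate 3 (0.0874). ABCA1 and ABCG1 are both textbook targets of the liver X receptors (LXR). On a wider list of sterol export and LXR pathway genes, 12 others were tested, of which 1 rose and 5 fell. That is 50% called, beside 38.3% of all tested genes and 44.7% of tested protein-coding genes, with a list median of -0.22. SREBF1, the sterol regulator of fatty acid synthesis, rose 1.24-fold (385 ± 6.51 CPM with DMSO, 477 ± 16.5 CPM with compound E; SD, n = 3). The ligase gene MYLIP, which removes the LDL receptor, fell 1.49-fold, from 6.25 ± 0.301 to 4.18 ± 0.176 CPM, and SOAT1, which esterifies cholesterol, fell (-0.25). The LXR genes NR1H2 and NR1H3 were not called, at 0.07 and -0.26.

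The lipid transporters that rose did so modestly. ABCA2, a sterol and sphingolipid transporter of endosomes and lysosomes, went from 34.3, 31.8 and 30.7 CPM to 42.2, 39.4 and 44.1 CPM, a 1.3-fold rise (log2 fold change 0.38 ± 0.0564 (SE), edgeR adjusted p = 8.1e-07). ABCA7, a phospholipid transporter linked to phagocytosis, went from 53.7, 58.0 and 54.8 CPM to 66.9, 63.1 and 69.7 CPM, or 1.2-fold (0.26 ± 0.0459 (SE), edgeR adjusted p = 1.19e-05). ABCG4, a sterol exporter mostly of neurons, rose 1.36-fold from 4.61, 4.54 and 4.33 CPM to 6.24, 5.75 and 6.38 CPM (0.44 ± 0.135 (SE), edgeR adjusted p = 0.00822; 0.187 with limma on unfiltered FPKM). In all 3 genes every compound E library was above every DMSO library. ABCA4, the retinal flippase, and ABCA5 were expressed and not called, with log2 fold changes of -0.03 and -0.01.

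**Figure D4:**
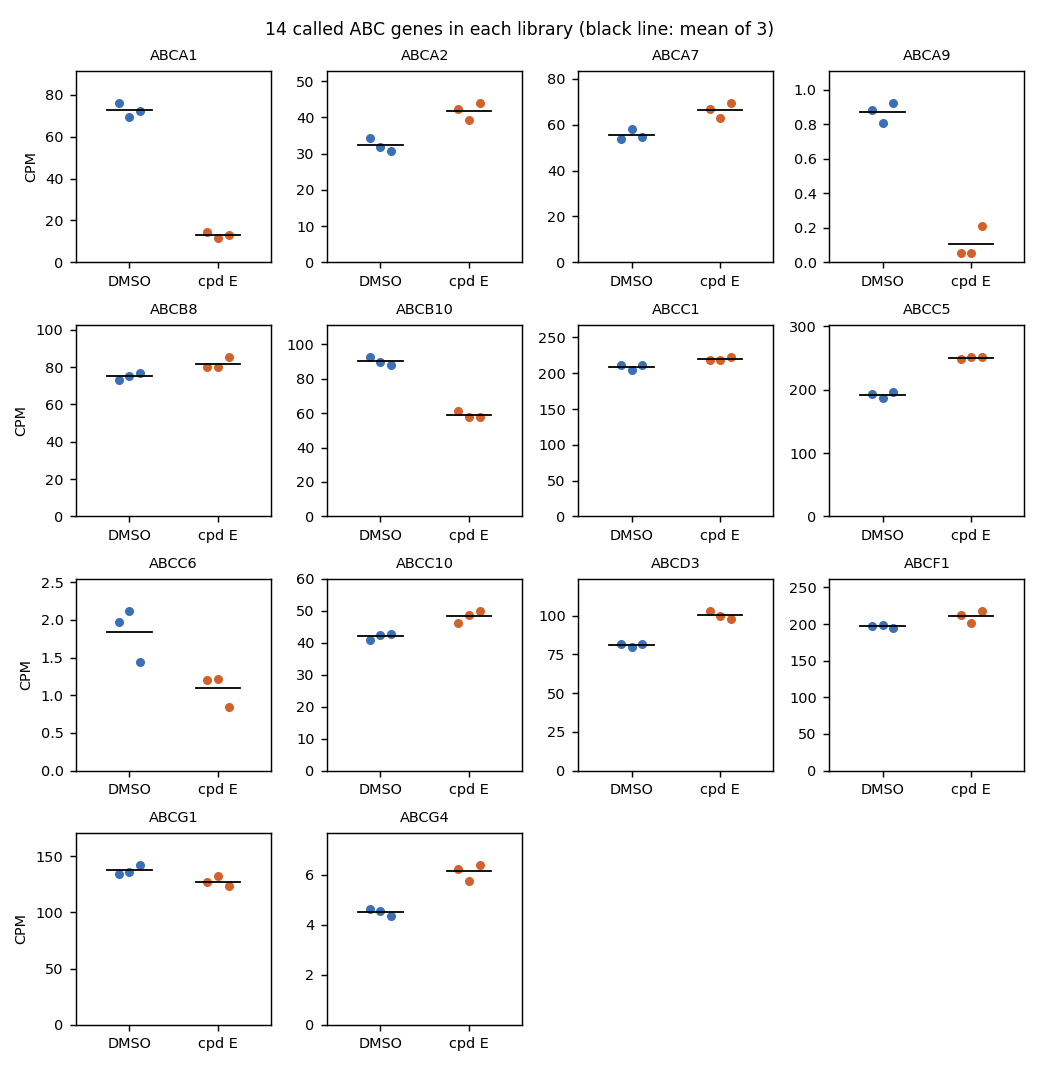
TMM-scaled CPM of 14 of the 16 called ABC genes, with 1 point per library and a black line at the mean of 3; each panel has its own axis from 0 (cpd E is compound E). ABCA1 falls from about 72.8 to 13.1 CPM on average and ABCB10 from 90.0 to 59.0 CPM, whereas the shifts of ABCC1, ABCF1 and ABCG1 are small beside their levels.

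A second pattern in subfamily A concerned a cluster of neighbouring genes on chromosome 17. In map order these are ABCA8, ABCA9, ABCA6, ABCA10 and ABCA5, all on the minus strand of GRCh38 between 68867292 and 69327244, and they are thought to arise from duplication. ABCA9, a little studied lipid transporter, had 17, 16 and 16 counts with DMSO and 1, 1 and 4 with compound E. That is a fall of 7.59-fold (log2 fold change -2.92 ± 0.535 (SE), edgeR adjusted p = 2.39e-05), and the fitted value was -3.83 without compound E replicate 3. ABCA9 passed the count filter through its DMSO libraries alone, where it is high. Its p-value is therefore no independent support for the fall. On the log2(FPKM + 1) scale, where the pseudocount exceeds its level of 0.0944 ± 0.00645 FPKM with DMSO, the difference was -0.11. ABCA6 had 14, 8 and 7 counts with DMSO and 0, 1 and 2 with compound E, and ABCA10 had 6, 3 and 7 against 2, 2 and 2. Both were too low for the test; when all genes with a count were fitted, ABCA6 had an edgeR adjusted p of 0.00037 and ABCA10 one of 0.283, where 18.6% of all genes were called. ABCA9-AS1, an antisense gene that shares 534 exonic bases (5.84%) with ABCA9, had 9, 15 and 14 counts with DMSO and 3, 2 and 2 with compound E, and no source used here tells whether the counting used strand, so these reads cannot be told apart with certainty. ABCA5, at the other end of the cluster, had 221, 222 and 209 counts with DMSO and 206, 217 and 209 with compound E, so its level was many times that of its neighbours and showed no such drop.

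**Figure D5:**
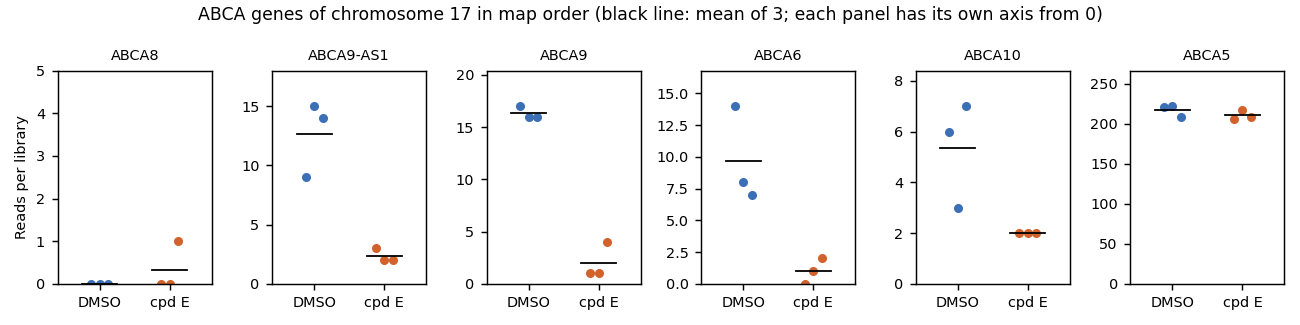
Reads per library of the chromosome 17 ABCA genes in map order and of ABCA9-AS1, with a black line at the mean of 3 and a separate axis from 0 in each panel (cpd E is compound E). ABCA9, ABCA9-AS1, ABCA6 and ABCA10 are lower in the 3 compound E libraries than in any DMSO library, whereas ABCA5 overlaps between the groups.

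Promoters are shown for the members at the ends of the range (ABCA9 and ABCA1 for the falls, ABCG4 and ABCC5 for the rises), to show which letters of a NOTCH partner's motif lie at these starts; ABCA1 and ABCC5 were added after their values were seen. Each holds 250 bases before and 50 from the start of the gene in RefSeq (GRCh38.p14), on the gene's strand, 5′ to 3′. Capitals mark TGGGAA, the core bound by RBPJ, the DNA-binding partner of NOTCH, on either strand, and CACGTG, the E-box bound by MYC and its relatives; these motifs do not overlap each other. The intervals are chr9:104928106-104928405 (minus) for ABCA1, chr17:69060878-69061177 (minus) for ABCA9, chr11:119148802-119149101 (plus) for ABCG4 and chr3:184017835-184018134 (minus) for ABCC5.
ABCA1: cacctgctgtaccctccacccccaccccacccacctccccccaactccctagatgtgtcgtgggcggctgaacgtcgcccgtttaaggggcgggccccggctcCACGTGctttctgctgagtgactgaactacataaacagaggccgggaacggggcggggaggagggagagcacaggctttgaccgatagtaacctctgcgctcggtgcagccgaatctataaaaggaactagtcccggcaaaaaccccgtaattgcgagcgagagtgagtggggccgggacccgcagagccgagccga
ABCA9: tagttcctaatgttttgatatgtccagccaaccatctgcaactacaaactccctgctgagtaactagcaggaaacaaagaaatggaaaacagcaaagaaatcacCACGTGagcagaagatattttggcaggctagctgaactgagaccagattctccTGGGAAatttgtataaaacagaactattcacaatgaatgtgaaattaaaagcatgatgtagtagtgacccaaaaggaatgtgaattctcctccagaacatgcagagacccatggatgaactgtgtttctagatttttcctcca
ABCG4: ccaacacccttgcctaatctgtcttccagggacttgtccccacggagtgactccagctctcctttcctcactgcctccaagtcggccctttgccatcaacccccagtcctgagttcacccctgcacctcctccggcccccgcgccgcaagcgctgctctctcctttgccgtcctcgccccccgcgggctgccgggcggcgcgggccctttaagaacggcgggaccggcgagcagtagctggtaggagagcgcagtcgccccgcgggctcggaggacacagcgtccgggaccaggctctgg
ABCC5: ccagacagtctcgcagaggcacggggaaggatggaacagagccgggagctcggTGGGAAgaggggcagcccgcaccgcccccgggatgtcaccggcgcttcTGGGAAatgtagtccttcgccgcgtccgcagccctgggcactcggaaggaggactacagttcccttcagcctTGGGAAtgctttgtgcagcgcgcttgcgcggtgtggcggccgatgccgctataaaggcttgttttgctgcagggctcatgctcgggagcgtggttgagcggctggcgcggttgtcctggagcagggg
The promoter of ABCA1 held CACGTG at -147 from the start and no TGGGAA, and that of ABCA9 held CACGTG at -146 and TGGGAA at -93. ABCC5 held TGGGAA at -197, -149 and -77, and ABCG4 held neither. RefSeq promoters matched 35 of the 45 members. TGGGAA was in 8 of them (22.9%) and in 24% of all 35116 promoters of the same length, and CACGTG was in 4 (11.4%) and in 7.26%. By call, TGGGAA was in 4 of 8 promoters of members that rose, 1 of 4 of those that fell, 1 of 10 of those not called and 2 of 13 of those not tested. For CACGTG the counts in the same order were 1 of 8, 2 of 4, 1 of 10 and 0 of 13. Whether motif and call go together was not tested. A match of letters is no evidence of binding.

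Mitochondrial members moved in both directions. ABCB10, an inner-membrane exporter needed for haem synthesis, fell from 92.7, 89.5 and 87.8 CPM to 61.1, 57.9 and 57.9 CPM. No library overlapped, and the fall was 1.53-fold (log2 fold change -0.61 ± 0.0411 (SE), edgeR adjusted p = 1.47e-15). ABCB8, part of the mitochondrial potassium channel, was higher by a small margin, at 73.1, 75.1 and 77.0 CPM against 79.9, 80.0 and 85.5 CPM (0.12 ± 0.0405 (SE), edgeR adjusted p = 0.0132). Limma on FPKM did not call it (0.0623 to 0.107), nor did edgeR when DMSO replicate 1 (0.0687) or replicate 3 of compound E (0.0864) was left out. ABCB6, a porphyrin transporter, was low and not called (0.10 ± 0.226 (SE)); 54.7% of its exonic bases also belong to a readthrough gene on the same strand, so its count is uncertain. Of 14 tested iron-sulfur and haem partners 3 rose and 3 fell. The share called was 42.9%, beside 38.3% of all tested genes and 44.7% of tested protein-coding genes (list median 0.03). SLC25A37, or mitoferrin-1, the iron importer that binds ABCB10, fell 1.57-fold (129 ± 1.1 CPM with DMSO, 82.5 ± 1.98 CPM with compound E; SD, n = 3), the chaperone gene HSPA9 fell (-0.37) and the glutaredoxin gene GLRX5 rose (0.39).

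Of the peroxisomal and lysosomal members, ABCD3, which imports branched fatty acids and bile acid precursors into peroxisomes, rose 1.24-fold, from 81.6, 79.5 and 81.4 CPM to 103, 100 and 97.9 CPM, without overlap (log2 fold change 0.31 ± 0.0373 (SE), edgeR adjusted p = 7.59e-09). ABCD4, the lysosomal cobalamin transporter, gave 62.3, 63.6 and 64.8 CPM with DMSO and 57.8, 59.4 and 63.0 CPM with compound E, which overlap (-0.08, adjusted p = 0.156 in edgeR, and 0.048 without compound E replicate 3). ABCB9, a lysosomal peptide transporter related to TAP, was not called (-0.21, adjusted p = 0.0903 in edgeR). Its exonic bases are shared with OGFOD2 (12.5%), AC026362.1 (20.7%) and ARL6IP4 (12%) on the opposite strand, so its count is uncertain. ABCD2, another peroxisomal member, had 3, 2 and 2 counts against 11, 3 and 6 and was not tested. Among 14 tested peroxisome and cobalamin partners 3 rose and 3 fell. The share called was 42.9%, beside 38.3% of all tested genes and 44.7% of tested protein-coding genes (list median -0.05). PEX5, the import receptor, rose 1.38-fold, from 171 ± 2.31 CPM with DMSO to 237 ± 1.4 CPM with compound E (SD, n = 3). SLC27A2, an acyl-CoA synthetase at low counts, fell (-1.58), and passed the count filter through its DMSO libraries alone.

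The ribosome-associated members were abundant and nearly flat. ABCF1, which supports initiation with eIF2, was higher with compound E at 213, 202 and 218 CPM against 198, 199 and 194 CPM, a 1.07-fold difference (log2 fold change 0.10 ± 0.031 (SE), edgeR adjusted p = 0.0094). That call was lost with limma on unfiltered FPKM (0.1) and without compound E replicate 3 (0.05, not below the threshold). ABCE1, which splits ribosomes after termination, read 141, 141 and 143 CPM with DMSO and 139, 140 and 135 CPM with compound E, and ABCF2 and ABCF3 were not called either, with log2 fold changes of -0.02 and 0.06. Of 13 tested partners in recycling and eIF2 function 4 fell and 2 rose. The share called was 46.2%, beside 38.3% of all tested genes and 44.7% of tested protein-coding genes (list median -0.03). Those that changed were led by EIF2S2 (-0.92), EIF1 (-0.78) and EIF2S3 (-0.41). Counts of ABCF2 are uncertain, since 45.8% of its exonic bases also belong to an overlapping gene on the same strand.

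Family members under other symbols were tested in all 3 cases. CFTR, a chloride channel built on the ABC fold of subfamily C, fell 5.91-fold, from 13.9, 14.3 and 14.3 CPM to 2.24, 2.32 and 2.6 CPM (log2 fold change -2.56 ± 0.124 (SE), edgeR adjusted p = 5.98e-20), a change close in size to that of ABCA1. CFTR lies on GRCh38 at chromosome 7, 117465784 to 117715971, plus strand. Its neighbour CTTNBP2, whose span overlaps it by 5.3 kb, fell as well (-2.67, adjusted p = 1.76e-05 in edgeR). Of all tested genes 19.4% were called lower. The counts of CTTNBP2 are not given here, so it is not shown whether it passed the count filter through its DMSO libraries alone. Its p-value is therefore not offered as support for a fall shared with CFTR. Within the peptide transporter of antigen presentation, TAP1 rose 1.26-fold, from 44.6, 42.3 and 41.3 CPM to 51.7, 54.4 and 55.1 CPM (0.33 ± 0.0488 (SE), edgeR adjusted p = 5.79e-07). TAP2, its partner subunit, overlapped between the groups, at 47.3, 50 and 52.9 CPM against 49.1, 49.0 and 48.8 CPM (-0.03, adjusted p = 0.658 in edgeR).

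Some other members share a stretch of a chromosome. ABCC1 and ABCC6 are 5.9 kb apart on chromosome 16, with log2 fold changes of 0.08 and -0.77 and levels of 27.3 and 0.241 FPKM with DMSO. ABCC5 and ABCF3, 168 kb apart on chromosome 3, had 0.39 and 0.06, and ABCA4 and ABCD3, 297.3 kb apart on chromosome 1, had -0.03 and 0.31. ABCB1 and ABCB4, 23.2 kb apart on chromosome 7, were both untested, and ABCB4, the phospholipid flippase of bile, had at most 5 counts in a library. ABCG5 and ABCG8, the head-to-head pair that secretes sterols from liver and gut, had 2, 0 and 0 and 6, 3 and 6 counts with DMSO and 0, 0 and 0 and 2, 3 and 4 with compound E. Of the remaining untested members ABCA3, the surfactant lipid transporter, had 9, 18 and 13 counts against 6, 8 and 0 (edgeR adjusted p = 0.0158 with no filter), ABCA12, of skin lipids, had at most 4 counts in a library, and ABCA8, ABCA13 and ABCB11 had 1 count each over all libraries.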

How the data were processed

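RNA from 6 libraries of MOLT-3 cells was analysed, 3 given DMSO and 3 given compound E, as the labels assign them. Libraries were made from poly(A)-selected RNA with a NEBNext Ultra kit, per the labels' protocols. The submitters' processing notes name HISAT2 2.0.5, featureCounts 1.5.0-p3 and DESeq2 1.16.1. No source used here gives the build, the handling of reads with several matches or the use of strand. Genes with near-identical copies, overlapping genes and antisense genes are therefore uncertain. The authors deposited whole-number counts per gene, not normalised. They also deposited FPKM values, each equal to the count over gene length and over 1 depth per library. All 58735 gene IDs matched GENCODE 29 in position, strand and name, and coordinates are given on its build, GRCh38.

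Counts were tested with edgeR 4.0.16 in R 4.3.3 (filterByExpr, TMM scaling, quasi-likelihood F-test, treatment as the only term), with Benjamini-Hochberg adjustment over 16926 tested genes and a threshold of 0.05. The common dispersion was 0.00074, a coefficient of variation of 2.72%. Standard errors were derived from the log2 fold change and its F statistic. The analysis was tested on simulated counts. Alternatives were RLE, library size alone and upper quartile scaling, DESeq2 1.42.0, no filter, at least 5 CPM in 3 libraries (the stricter filter), limma-voom (limma 3.58.1), the replicate number as a block, limma on log2(FPKM + 1) with and without filter and on log2(FPKM + 0.1), protein-coding genes alone, and each library left out.

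The members, the gene lists and the roles were chosen with earlier results of these data known. Values per library are given for ABCB1, ABCC1 and ABCG2, for called efflux members and for at most 3 called members of each other subfamily, by smallest p, and for up to 3 called genes per list a value is given; values of other named genes were added after they were seen. Figures were drawn with matplotlib 3.10.9. No protein sequences were used here. Some genes are counted in the family and list totals and are not reported here by name.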

Additional observations from a re-analysis of the deposited data

How the results depend on the processing

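Of 481 values of the 27 tested ABC genes under the alternatives, 438 kept their side of the threshold, 42 lost a call, 1 gained one and 0 reversed a called direction. In all, 9 of the 16 called genes (among them ABCA1, ABCA2, ABCA7, ABCA9, ABCB10, ABCC5, ABCC10 and ABCD3) kept their call in every fit that tested them. ABCA9 was too low for the stricter filter. It passed the reported count filter through its DMSO libraries alone, so its calls under that filter are no independent support. The other 7 lost it in at least 1 fit. With limma on unfiltered FPKM, 5 members were called higher (10 in the reported test) and 4002 genes in all (6484). With each library left out, 6 to 10 members were called higher, 5 to 7 lower, 2 to 3 efflux members higher and 0 to 1 efflux members lower, and 5671 to 6068 genes were called in all. The count of 1 efflux member lower, ABCC6, was 0 with DESeq2, with the 3 limma fits on FPKM and with the stricter filter, where ABCC6 was not tested. The causes were not tested. DESeq2 called 13 members, 13 of them shared with the reported 16. The rise of the summed efflux FPKM, 7.24, was 7.02 from TMM-scaled counts per kilobase, 7.25 without ABCC8 and ABCC9, and 6.8 to 7.52 with a library left out. Same-numbered libraries of the groups did not deviate together (correlations across genes of 0.01, -0.021 and -0.005). Counting noise of low genes weighs on these correlations, so they cannot tell whether same-numbered libraries were prepared as pairs. With the replicate block 8 members were called higher and 6 lower, 2 efflux members higher and 1 lower, and 6138 genes in all. Depth limits the 18 untested members, of which ABCA6 (edgeR adjusted p = 0.00037) and ABCA3 (0.0158) were called with no filter. That fit called 18.6% of all genes, and ABCA3 had 6, 8 and 0 counts in the compound E libraries.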
